A study of Mus musculus with 6 samples.

Results

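Sox11 and 6 related Sox transcription factors (Sox4, Sox2, Sox9, Sox10, Sox17 and Sox18) were followed in the cerebellum of mice lacking L1cam, an X-linked cell adhesion molecule of growing axons. The probe sets taken were those whose only gene symbol in the array annotation is 1 of these 7 names. This gave 11 of the 12422 probe sets, covering 6 genes: a pair each for Sox11, Sox4, Sox10, Sox17 and Sox18, and 1 for Sox2. No probe set carries the symbol Sox9, so Sox9 was not analysed here. Sox11 was selected on its log2 difference between the genotypes in these same arrays, and its relatives were added by name, so the Sox11 genotype difference is given as a description and supports nothing further.

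RNA came from whole cerebellum at postnatal day 11. The 3 L1cam knockout arrays are labelled male and -/Y, and the 3 wild type arrays came from siblings whose sex the labels do not give. All mice were congenic on 129Sv, with the strain given as 129S2/SvPasCrlf. The question of the study is what losing L1cam does to transcript levels in this tissue. The altered part of the L1cam gene is not given in the sources used here. Each sample was hybridised to 1 Affymetrix Murine Genome U74Av2 array, and the values are RMA log2 values, so a difference of 1 is a doubling.

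Sox proteins bind DNA through an HMG box, a domain shared by the family. The family is named after its founding member Sry. Sox11 and Sox4 form the SoxC group with Sox12 and act in newly born neurons, where they switch on neuronal genes such as Tubb3 and Dcx. Sox2, of the SoxB1 group, marks neural stem cells and progenitors and persists in Bergmann glia and astrocytes. Sox9 and Sox10 are SoxE factors, Sox9 of glial progenitors and astrocytes and Sox10 of the oligodendrocyte lineage. Sox17 and Sox18, with Sox7, form the SoxF group of endothelial cells. At this age granule neurons are still being born in the cerebellum and myelin is forming.

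L1cam itself read 8.25, 8.01 and 7.91 in the knockouts, against 8.79, 8.48 and 8.73 in wild type. All knockout arrays lay below all wild type arrays, with a difference of -0.60 (SE 0.10, limma adjusted p = 0.841, 2-sided exact permutation p = 0.1, the smallest that 3 against 3 allow). The array labelled knockout 1 stood apart in other respects. Its 3' signal exceeded its 5' signal at the Gapdh controls by 0.67, against at most 0.13 on the other 5 arrays. Its Y-linked Eif2s3y signal was 7.11, against at least 8.59 on the other arrays, although it is labelled male. Uty, also Y-linked, read 6.67 there and 7.32 to 7.45 on the other arrays, while the Y-linked Kdm5d read 7.22 there and 7.22 to 7.41 on the others. Xist read 6.33 there and 6.31 to 6.41 on the others. Markers of the labelled tissue were bright: Pcp2 of Purkinje cells, Gabra6 of granule neurons and Cbln1 lay at percentiles 98.8, 96.8 and 98.8 of mean level. The Sox differences that rest on knockout 1, and the SoxC and oligodendrocyte list medians, are therefore also given without it. Differences of single genes in the lists below include knockout 1, and some of them rest on it.

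The promoters of Sox11 and Sox4 are shown because these related SoxC genes had different array values. They are the 250 bases before each transcription start from RefSeq (GRCm38.p6). The promoter table used here matched 3 of the 7 genes. Sox11 lies at chr12:27342719-27342968 and Sox4 at chr13:28953700-28953949, both on the minus strand and written 5′ to 3′. Capitals mark the CCAAT box, read on either strand, a common promoter element.
Sox11: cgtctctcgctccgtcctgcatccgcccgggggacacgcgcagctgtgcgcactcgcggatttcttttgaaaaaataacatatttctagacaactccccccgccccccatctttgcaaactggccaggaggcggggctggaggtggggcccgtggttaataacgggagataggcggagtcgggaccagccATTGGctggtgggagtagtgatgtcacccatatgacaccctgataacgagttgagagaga
Sox4: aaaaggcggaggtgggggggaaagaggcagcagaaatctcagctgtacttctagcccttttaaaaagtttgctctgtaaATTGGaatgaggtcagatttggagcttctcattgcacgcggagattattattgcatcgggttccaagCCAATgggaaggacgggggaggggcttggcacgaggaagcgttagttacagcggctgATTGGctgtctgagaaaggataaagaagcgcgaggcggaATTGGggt
Sox11 holds 1 CCAAT box, which begins 60 bases before the start, and Sox4 holds 4. Of 32851 promoters of the same length, 33.9% hold at least 1. Neither window holds TATAAA, found in 12.4% of promoters, or the core Sox sites ACAAT (27.7%) and ACAAAG (16.5%), on either strand. The motifs do not overlap one another in these windows. The array measured transcripts, so these matches describe the sequence only.

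Sox11 was lower in the knockouts at both of its probe sets. Probe set 101631_at read 10.27, 9.84 and 10.41 in the knockouts, against 10.59, 10.63 and 10.53 in wild type. Probe set 93669_f_at read 9.25, 9.35 and 9.84 in the knockouts, against 9.96, 9.997 and 10.03 in wild type. At both, every knockout array lay below every wild type array, and knockout 3 lay closest to wild type. The means were 10.17 ± 0.30 in the knockouts and 10.58 ± 0.048 in wild type at 101631_at (SD, n = 3 each), and 9.48 ± 0.31 in the knockouts and 9.996 ± 0.034 in wild type at 93669_f_at (SD, n = 3 each). The differences were -0.41 (SE 0.12) at 101631_at and -0.52 (SE 0.13) at 93669_f_at, or 1.33-fold and 1.43-fold lower in the knockouts. In whole tissue, fewer Sox11-expressing cells and less Sox11 RNA per cell cannot be told apart.

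**Figure D1:**
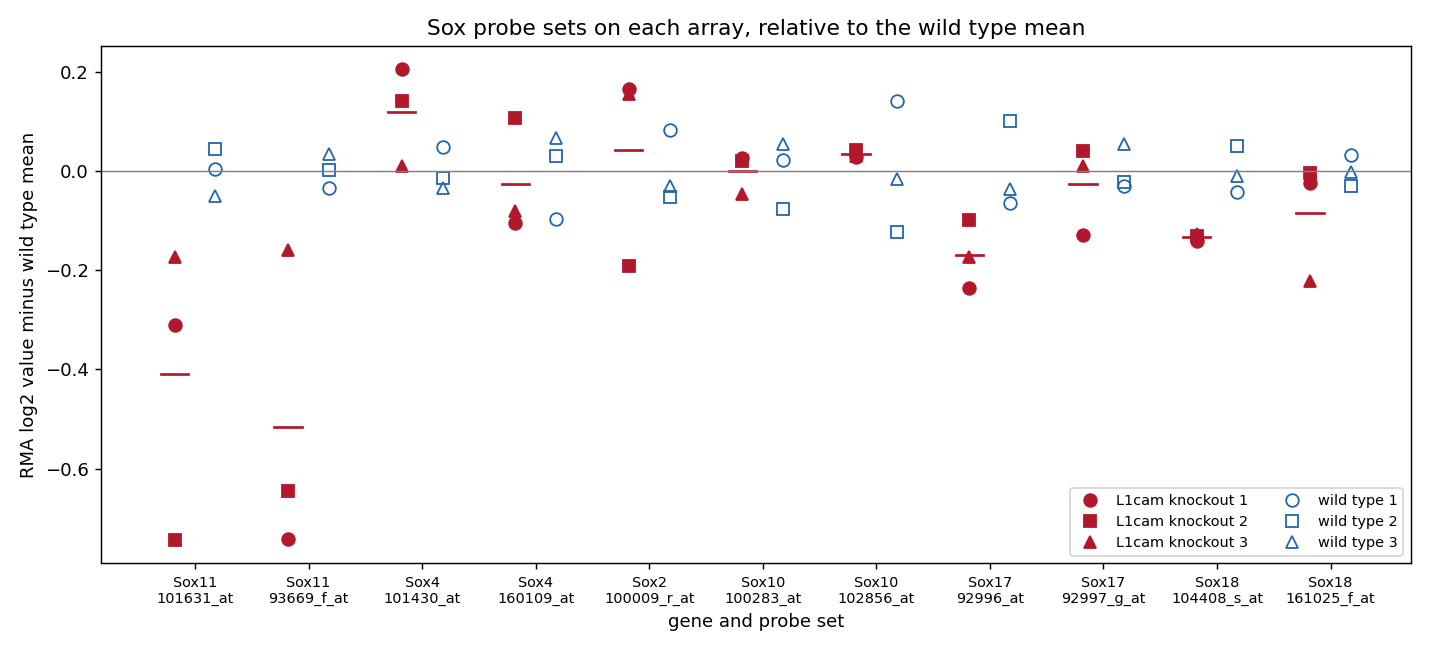
RMA log2 value of each Sox probe set on each array, minus the wild type mean of that probe set. Filled red symbols left of each pair are L1cam knockout arrays, open blue symbols are wild type arrays, shapes give the array number, and red lines are knockout means. The knockout arrays spread widely below wild type at both Sox11 probe sets, while at 104408_s_at of Sox18 they lie almost on top of each other.

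The spread of Sox11 lay in the knockouts. Its knockout SDs stood at percentiles 99.0 and 99.2 of all probe sets, and its wild type SDs at percentiles 25.9 and 14.8. The median SD over all probe sets was 0.082 in the knockouts and 0.075 in wild type. The lowest array differed between the probe sets, being knockout 2 at 101631_at, 0.33 below the knockout mean, and knockout 1 at 93669_f_at, 0.23 below it. Knockout 3 was the highest knockout at both, by 0.24 and 0.36 above the mean. Deviations from the genotype mean had the same sign at both probe sets on 3 of the 6 arrays. The gap between the 2 sets of deviations was 0.17 as a root mean square, and 0.053 without knockout 1. The suffix _f_at marks a probe set that may also bind related sequences, and the positions of the probes in the transcript were not used here.

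None of the 11 Sox probe sets reached a limma adjusted p under 0.05, as did 0% of the array, and the smallest adjusted p on the array was 0.841. Sox11 had adjusted p = 0.885 at 101631_at and adjusted p = 0.841 at 93669_f_at. Single knockout arrays moved these values. Without knockout 3, the difference was -0.69 at 93669_f_at with a limma adjusted p of 0.0447, the only Sox call under any alternative run, and -0.53 at 101631_at with adjusted p = 0.742. Without knockout 2, the difference at 101631_at shrank to -0.24, while 93669_f_at stood at -0.45. Without knockout 1, the array with the Gapdh gap, the differences were -0.46 at 101631_at and -0.40 at 93669_f_at. Leaving out single wild type arrays kept them between -0.43 and -0.39 at 101631_at and between -0.53 and -0.50 at 93669_f_at.

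**Figure D2:**
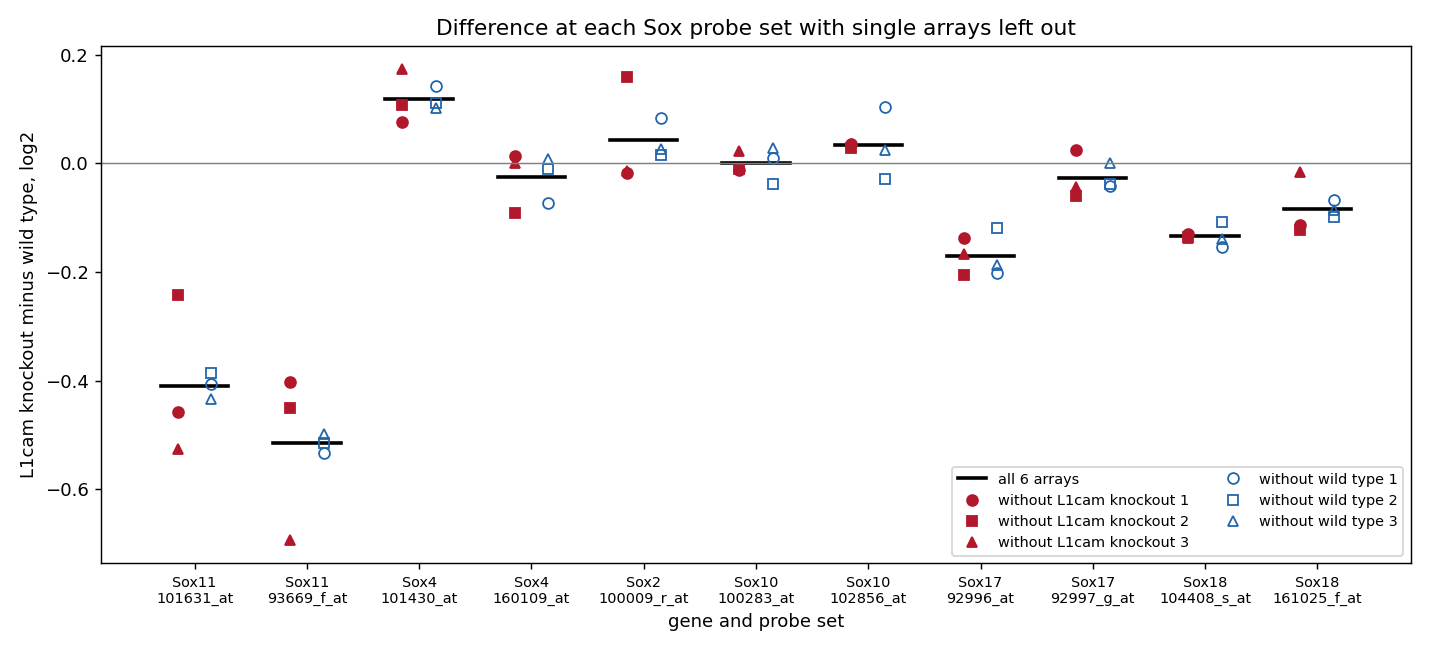
Difference between L1cam knockout and wild type (log2) at each Sox probe set with all 6 arrays (black line) and with each array left out (symbols, red for omitted knockouts, blue for omitted wild types). With 1 array left out, Sox11 lies between -0.53 and -0.24 at 101631_at and between -0.69 and -0.40 at 93669_f_at. Since its groups do not overlap, the sign could not turn.

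Sox4, the close relative of Sox11, had 2 probe sets of opposite sign. At 101430_at it read 10.49, 10.43 and 10.30 in the knockouts, against 10.34, 10.27 and 10.25 in wild type. Only knockout 3 fell within the wild type range. The difference was 0.12 (95% interval -0.032 to 0.27, limma adjusted p = 0.927). At 160109_at it read 10.83, 11.04 and 10.86 in the knockouts, against 10.84, 10.96 and 11.00 in wild type. These groups overlapped, and the difference was -0.025 (95% interval -0.20 to 0.14, limma adjusted p = 0.975). Knockout 1 was the highest knockout at 101430_at and the lowest at 160109_at, and without it the differences were 0.076 and 0.014. Deviations from the genotype mean shared their sign on 2 of 6 arrays.

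Sox2, the progenitor and Bergmann glia factor, read 11.06, 10.71 and 11.05 in the knockouts, against 10.98, 10.85 and 10.87 in wild type at its only probe set, 100009_r_at. Knockout 2 lay below and the other knockouts above all wild type arrays. The difference was 0.043 (95% interval -0.17 to 0.26, limma adjusted p = 0.970). It was 0.16 without knockout 2 and -0.018 without knockout 1. Knockout 2 thus gave the lowest value on any array both for Sox2 and for Sox11 at 101631_at, and its part in these results beyond the values above was not tested.

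Sox10, which drives myelin gene expression in oligodendrocytes, gave nearly equal group means. At 102856_at it read 10.66, 10.67 and 10.66 in the knockouts, against 10.77, 10.51 and 10.61 in wild type. The knockouts all lay inside the wild type range, and their SD of 0.0082 stood at percentile 0.81 of all probe sets. The difference was 0.033 (95% interval -0.13 to 0.20, limma adjusted p = 0.969). At 100283_at the difference was 0.00028 (95% interval -0.14 to 0.14, limma adjusted p = 0.999), with values of 8.64 to 8.71 in the knockouts and 8.61 to 8.74 in wild type. A change in either direction beyond 0.20 lies outside both intervals.

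The SoxF genes Sox17 and Sox18, endothelial factors that take part in vessel and lymphatic development, were lower in the knockouts at 1 probe set each without passing the test. Sox17 at 92996_at read 8.86, 8.99 and 8.92 in the knockouts, against 9.03, 9.19 and 9.06 in wild type. Sox18 at 104408_s_at read 8.56, 8.57 and 8.58 in the knockouts, against 8.66, 8.75 and 8.69 in wild type. The groups did not overlap at either. The difference was -0.17 (95% interval -0.32 to -0.017, limma adjusted p = 0.922) for Sox17 and -0.13 (95% interval -0.26 to -0.0044, limma adjusted p = 0.922) for Sox18.

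The companion probe sets gave smaller differences. Sox17 at 92997_g_at read 9.45, 9.62 and 9.59 in the knockouts, against 9.55, 9.55 and 9.63 in wild type, a difference of -0.026 (limma adjusted p = 0.974). It was 0.025 without knockout 1, which gave the lowest value of all arrays at both Sox17 probe sets. Sox18 at 161025_f_at read 9.24, 9.26 and 9.04 in the knockouts, against 9.29, 9.23 and 9.26 in wild type, a difference of -0.084 (limma adjusted p = 0.932). Only knockout 3 stood clearly below wild type there, and without it the difference was -0.015. Without knockout 1 the differences were -0.14 at 92996_at and -0.13 at 104408_s_at.

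The groups did not overlap at 4 of the 11 probe sets, the Sox11 pair and the 1 each of Sox17 and Sox18, all lower in the knockouts. Over the whole array 6.63% of probe sets were lower without overlap and 3.76% higher. The same 4 probe sets had an unadjusted limma p under 0.05, where 5.08% of the array did. Because Sox11 entered through this contrast and the list was drawn up with results of these arrays known, nothing is read from these counts. The median difference was -0.026 over the 11 probe sets and -0.023 over all 12422, and 7 of the 11 had a lower knockout mean, where 62.3% of the array did.

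**Figure D3:**
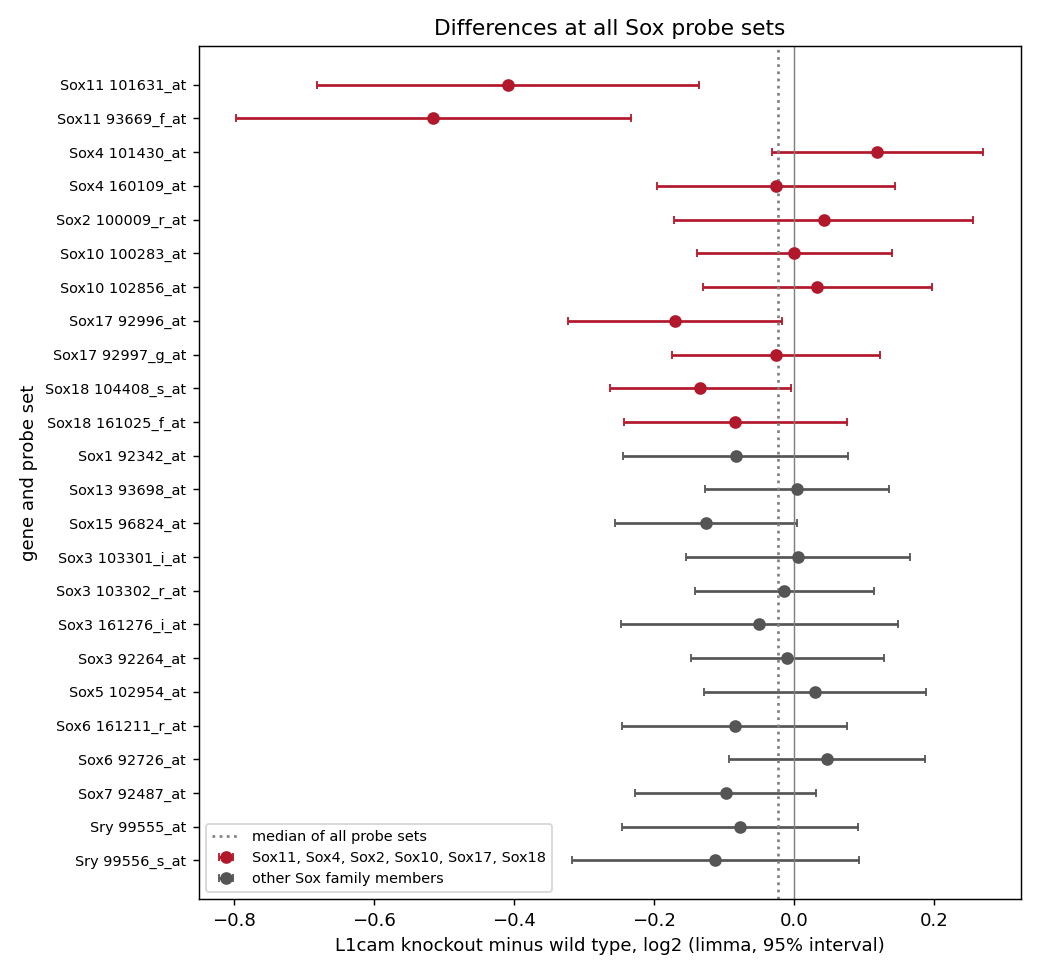
Difference between L1cam knockout and wild type (log2) at each probe set of the 6 measured genes (red) and of other Sox family members (grey), with limma's 95% interval over 3 arrays per group. The dotted line at -0.023 is the median of all probe sets. Both Sox11 points lie left of -0.40, and the remaining 22 lie between -0.17 and 0.12.

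Other Sox genes stayed nearer to 0 than Sox11. The 8 measured genes, Sry among them, had 13 probe sets, none past the limma threshold, and differences from -0.13 for Sox15 to 0.047 for Sox6. Sox7, the remaining SoxF gene, read 8.78, 8.79 and 8.71 in the knockouts, against 8.88, 8.84 and 8.85 in wild type. Its groups did not overlap, with a difference of -0.098 (95% interval -0.23 to 0.032, limma adjusted p = 0.927). Sox15 also had groups without overlap, at 7.89 to 7.95 in the knockouts and 8.01 to 8.09 in wild type. Of the 13 probe sets these 2 were lower without overlap and 0 were higher, where 6.63% and 3.76% of the array were. Sox3, a SoxB1 gene like Sox2, had 4 probe sets, with differences between -0.050 and 0.0052. Sox1, the last SoxB1 gene, differed by -0.083, and the SoxD genes Sox5 and Sox13 by 0.030 and 0.0043. Sox6, also a SoxD gene, differed by 0.047 at its brighter probe set and by -0.085 at the other.

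Genes tied to the SoxC factors did not pass in either direction (0 of 19). This list of reported SoxC targets and immature neuron genes had 12 genes with a higher and 7 with a lower knockout mean, and a median of 0.052, where the median over all 8251 genes was -0.022. Tubb3, a neuronal tubulin, differed by 0.095, and by 0.21 at a dimmer probe set. Dcx, a microtubule protein of migrating neurons, differed by 0.043, and Tead2, a transcription factor, by 0.11. Stmn1, which destabilises microtubules, differed by 0.19, and by -0.063 at a dimmer probe set. Knockout 1 was the highest array for Tubb3, Dcx, Tead2 and Stmn1 at their brightest probe sets. The list median leaned on 1 array. Knockout 1 lay 0.19 above the 6-array mean at the median gene and the others between -0.064 and 0.020. Without knockout 1 the median difference was -0.0040, and without knockout 2 it was 0.12. Gap43 (0.18), Crmp1 (0.26) and Dbn1 (0.27) were higher without overlap, 3 of 19 where 330 of 8251 genes were. None of the list was lower without overlap, where 552 of all genes were. The list's mean log2 level ran from 11.10 to 11.30 in the knockouts and from 11.12 to 11.13 in wild type.

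POU factors, which bind DNA together with Sox proteins, had lower knockout means in 6 of 6 measured genes (median -0.069, or -0.12 without knockout 2 and -0.031 without knockout 3), where 61.7% of all genes did, and none passed. Pou3f3 differed by -0.24, Pou3f4 by -0.13, Pou3f2 by -0.084 and Pou3f1 by -0.034. Only Pou3f3 was lower without overlap, 1 of 6 where 552 of 8251 genes were. Of 13 genes of granule cell progenitors, the dividing precursors of granule neurons, 6 had a higher knockout mean and 7 a lower one (median -0.024, or 0.034 without knockout 3). Atoh1, their defining transcription factor, differed by -0.13, the proliferation marker Mki67 by -0.077, the cyclin Ccnd2 by -0.046 and Mycn by 0.23.

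Lists tied to the glial and endothelial Sox genes likewise had no gene past the limma threshold. The astrocyte and Bergmann glia list of 18 had 5 higher and 13 lower members (median -0.027), with Fabp7 at 0.17, Gfap at 0.15, the water channel Aqp4 at -0.37 and the glutamate transporter Slc1a2 at -0.016. Of these 18, 4 were lower without overlap, Aqp4 among them, and 0 were higher, where 552 and 330 of all 8251 genes were. For Gfap, knockout 1 read 11.53 and the other knockouts 11.03 and 11.11, against 10.89 to 11.34 in wild type. At a dimmer probe set Gfap differed by 0.26. Among 13 Sox10 targets and oligodendrocyte genes, 3 were higher and 10 lower. Their median of -0.12 was -0.041 without knockout 1 and -0.049 without wild type 3. The myelin genes Mbp, Mag and Mog differed by -0.14, -0.046 and -0.20, and Myrf, a transcription factor of myelination, by -0.13. At a dimmer probe set Mbp differed by 0.015. For Mog, knockout 1 read 8.66 and the other knockouts 9.10 and 9.43, against 9.01 to 9.44 in wild type. The endothelial list of 17 had 8 higher and 9 lower members (median -0.0046). Cdh5, the endothelial cadherin, differed by 0.10, Cldn5 by 0.059, Pecam1 by -0.0046 and the VEGF receptor Kdr by -0.0053, set beside -0.17 and -0.13 at the lower Sox17 and Sox18 probe sets. In the same list, Flt4, a receptor of lymphatic growth factors, differed by -0.24 and the endothelial nitric oxide synthase Nos3 by -0.14. Both were lower in the knockouts without overlap, while Cd34 (0.098) and Nr2f2 (0.13) were higher without overlap. That is 2 lower and 2 higher of 17, where 552 and 330 of all 8251 genes were. The mean log2 level of the endothelial list ran from 8.88 to 8.90 in the knockouts and from 8.86 to 8.91 in wild type.

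**Figure D4:**
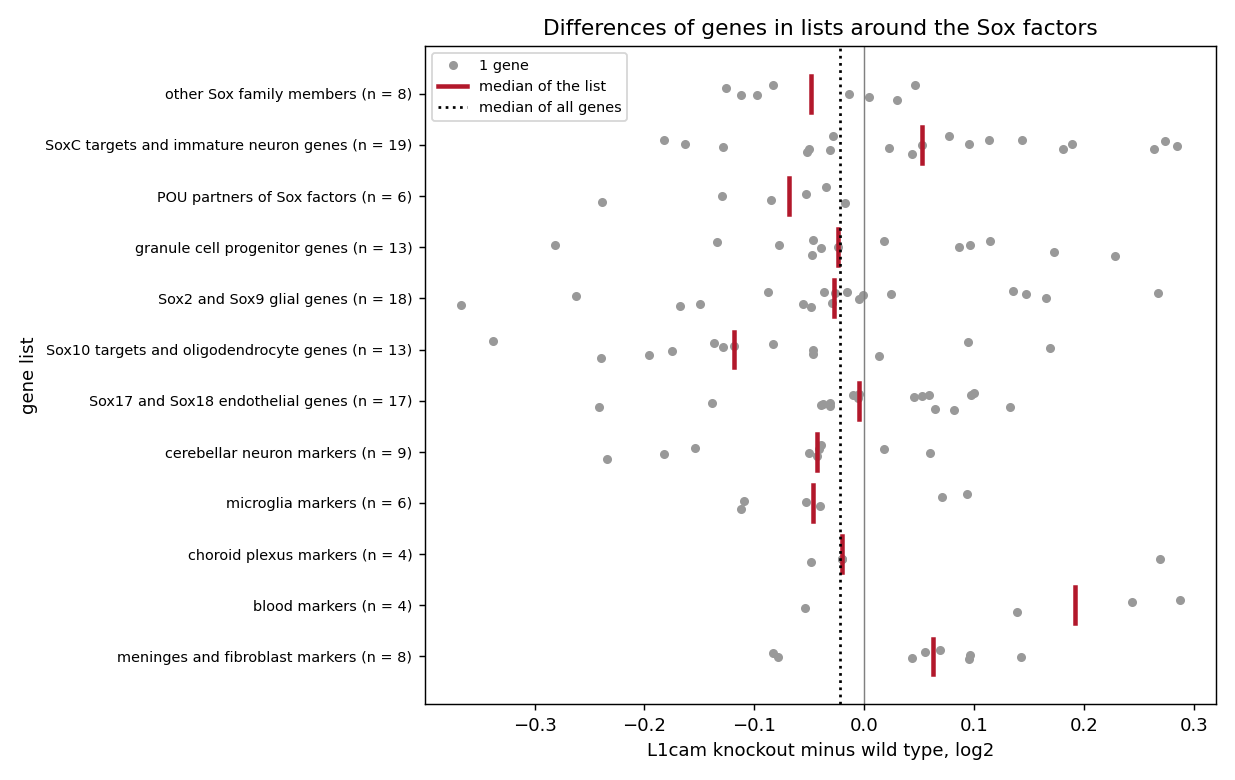
Differences between L1cam knockout and wild type (log2) for the genes of 12 lists, 1 probe set per gene (grey points), with each list's median (red) and the median of all genes (dotted, -0.022). No gene in these lists passed the limma threshold. The SoxC and immature neuron list has its median at 0.052 and the Sox10 and oligodendrocyte list at -0.12.

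Lists of other cells were measured beside them. Cerebellar neuron markers had 7 of 9 genes lower (median -0.043, or -0.11 without wild type 1 and -0.0089 without wild type 2), with Pcp2 at -0.043, Calb1 at 0.060, Gabra6 at -0.23 and Cbln1 at -0.041. Blood markers had 3 of 4 higher (median 0.19), with Hba-a1 at 0.29, Hbb-b2 at 0.24, Alas2 at 0.14 and Slc4a1 at -0.054, and their mean log2 level ran from 11.48 to 11.66 in the knockouts and from 11.33 to 11.51 in wild type. Meningeal and fibroblast genes had 6 of 8 higher (median 0.062), with Col1a1 at 0.043, Col1a2 at -0.083, Col3a1 at 0.14 and Dcn at 0.096. At their other probe sets Col1a1 differed by -0.045 and Col1a2 by 0.022. Microglial markers had 4 of 6 lower (median -0.047), with Cx3cr1 at -0.11, Csf1r at 0.071, Aif1 at -0.040 and C1qa at -0.053. Choroid plexus markers had 3 of 4 lower (median -0.020, or -0.11 without wild type 1 and 0.13 without knockout 3), with Ttr, its main secreted protein, at 0.27 (SE 0.74), Kl at -0.020, Folr1 at -0.049 and Aqp1 at -0.020. At its other probe set Folr1 differed by 0.055. The part of these cell types in the Sox values was not tested.

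The genes whose profile over the 6 arrays lay closest to Sox11 were picked for that likeness, as the root mean square distance between profiles centred on their own mean, and carry no test. Among 10831 probe sets of other named genes the median distance was 0.29. The closest were Zfp322a (0.073), Gria2 (0.090), Nectin3 (0.097), Yy1 (0.10), Chordc1 (0.11) and Arf6 (0.11). Zfp322a encodes a zinc finger protein, Gria2 an AMPA receptor subunit, Nectin3 an adhesion molecule, Yy1 a transcription factor, Chordc1 a co-chaperone and Arf6 a small GTPase. All had knockout 2 as their lowest array and knockout 3 as the knockout nearest to wild type. In 3 of the 6, Zfp322a, Nectin3 and Arf6, the knockouts were lower without overlap, where 6.63% of the array was. The Sox11 profile they were picked to match has these same traits, so nothing is read from them. Gria2 differed by -0.46 and -0.38 at further probe sets but by 0.014 at another, while Chordc1 differed by -0.17, Yy1 by -0.093, Nectin3 by -0.021 and Arf6 by -0.021 at their other probe sets. No other Sox member ranked among them: Sox18 at 104408_s_at stood at rank 548 (distance 0.23) and Sox4 at 101430_at at rank 10290 (0.36).

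**Figure D5:**
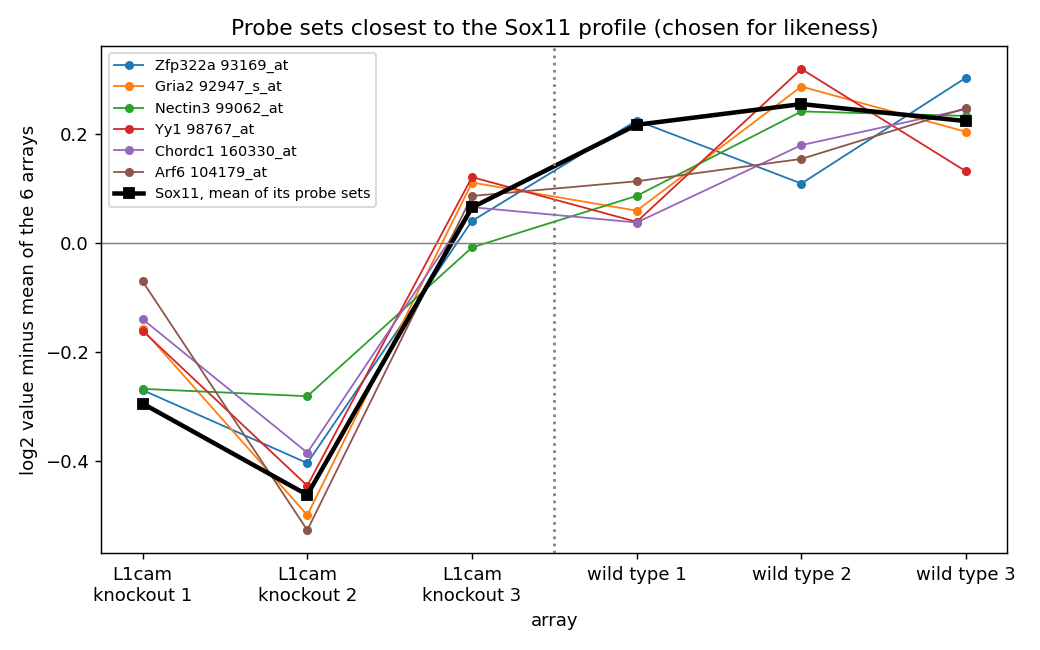
Log2 value minus the mean of the 6 arrays for the mean of the Sox11 probe sets (black) and the 6 probe sets of other genes closest to it (colours), with L1cam knockouts left and wild types right of the dotted line. The Sox11 mean lies at -0.30, -0.46 and 0.064 in the knockouts and between 0.22 and 0.25 in wild type, and the other probe sets were chosen for this shape.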

How the data were processed

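The authors deposited log2 values per probe set. RMA, named in the submitters' processing notes, corrects background, normalizes between arrays and summarises probes, and its version is not stated there. Scanner files were not used here. Of 12488 rows, 66 array controls were left out. The array annotation names 10833 probe sets by 1 symbol and 396 by several, and leaves 1193 unnamed. Gene IDs of 10817 of them were found in the RefSeq table (GRCm38.p6), all with the same symbol.

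Knockout minus wild type differences were fitted for all 12422 probe sets with limma 3.58.1 in R 4.3.3 (lmFit, eBayes, 2-sided, Benjamini-Hochberg over all, threshold 0.05). Arrays have no read depth, so their number limits the precision, and the 95% interval reached 0.16 to either side at the median. Each array stands for 1 mouse, as the design text implies. Correlations between arrays ran from 0.995 to 0.997, and array medians from 8.87 to 8.94. The members and gene lists were chosen with earlier results of these data known. Lists use the probe set of highest mean for each gene and are described by counts and medians. Named were all members, L1cam, the first 4 measured genes of each list and the 6 closest profiles. Other genes named (Sox7, Sox13, Sox15, Gap43, Crmp1, Dbn1, Flt4, Nos3, Cd34, Nr2f2, Eif2s3y, Uty, Kdm5d and Xist) were chosen after their values were seen.

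The fit was tested on simulated data of this design with 12422 probe sets and 3 arrays a group. It called 96% of 100 probe sets changed 1.5-fold and 100% of 100 changed 2-fold, with 9 false calls. The simulated noise was drawn independently for each array and probe set. These shares therefore check the fit and do not give its power on the real arrays. There L1cam was 1.52-fold lower in the knockouts, with limma adjusted p = 0.841. Alternatives were quantile normalization, median centring, leaving out probe sets below the 40th percentile, trended robust variance, weighted arrays, a replicate block, each array left out, averaging over the probe sets of each gene, suffixed probe sets left out and a threshold of 0.1.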

Additional observations from a re-analysis of the deposited data

Results flagged for a closer look

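The array's control probe sets enter no comparison of Sox genes. The gap between 3' and 5' signal at the Gapdh controls was 0.67 in knockout 1 and 0.130 in knockout 3, each above the highest wild type array at 0.125. At the Actb controls it was 1.09 in knockout 1 and 0.95 in knockout 3, each above the highest wild type array at 0.93. The gaps of knockout 2 were 0.043 and 0.89. The part of these gaps in the Sox values was not tested beyond leaving out each array.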

How the results depend on the processing

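The count of probe sets past the threshold, over the array and over the Sox members, ran from 0 to 1 over single omissions, the 1 being Sox11 93669_f_at without knockout 3 (-0.69, adjusted p = 0.0447). Over single omissions that probe set ran from -0.69 to -0.40, and its adjusted p was otherwise no lower than 0.34.

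Small differences changed sign. After median centring, Sox4 160109_at stood at 0.0063 and Sox17 92997_g_at at 0.0054, since centring moved the median of all probe sets from -0.023 to 0.0089. With the mean of the gene's probe sets Sox4 stood at 0.047, and with array weights Sox10 100283_at at -0.0099. Over single omissions, Sox4 160109_at ran from -0.092 to 0.014, Sox2 from -0.018 to 0.16, Sox10 100283_at from -0.038 to 0.028, Sox10 102856_at from -0.028 to 0.10 and Sox17 92997_g_at from -0.060 to 0.025. The cause was not tested.

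List medians that moved by more than the replicate spread were those of the glial list (0.0043 after median centring, -0.059 to -0.0089 over single omissions), the endothelial list (0.027, and -0.027 to 0.051), the oligodendrocyte list (-0.11 to -0.041) and the progenitor list (-0.055 to 0.034). The share of higher knockout means among probe sets at an unadjusted p under 0.05 was 48.3% as deposited, 66.0% after quantile normalization and 79.1% after median centring. After quantile normalization and median centring the 4 Sox probe sets without overlap were again lower without overlap. So were 4.31% and 3.25% of all probe sets. This comparison was added after seeing the data. Leaving out an array cannot make groups that do not overlap start to overlap. Sox4 101430_at was higher without overlap after median centring, where 6.7% of all probe sets were. Of the 11 Sox probe sets, 4 had an unadjusted limma p under 0.05 as deposited. After quantile normalization 2 did, and after median centring 3 did. Over all 12422 probe sets the counts were 631 as deposited, 608 after quantile normalization and 675 after median centring. The Sox11 pair entered through this contrast, so nothing is read from these counts.

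The labels do not say that the replicate numbers pair the mice. Same-numbered arrays had correlations of deviations of 0.16, -0.32 and 0.17, and not every array correlated best with its own number. With so few arrays these values cannot decide whether the numbers mark pairs. With the replicate number as a block the count past the threshold was 0, and Sox11 had adjusted p = 0.561 at 101631_at and 0.341 at 93669_f_at, with unchanged differences of -0.41 and -0.52.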
